A study of Homo sapiens with 4 samples.

Results

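Krüppel-like factors (KLF proteins) and their SP relatives are transcription factors with C2H2 zinc fingers that bind GC-rich boxes and CACCC elements in promoters and enhancers. Some members mostly activate transcription (KLF2, KLF4, KLF5, KLF6), some recruit the SIN3 corepressor (KLF9, KLF10, KLF11, KLF13, KLF16), and others recruit CtBP (KLF3, KLF8, KLF12). Several are early-response genes with short-lived transcripts. In gut and pancreatic epithelium, KLF4 and KLF5 are best known for opposed parts in differentiation and proliferation, while KLF2 is best known from endothelium and resting T cells.

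The transcripts of 10 KLF genes, KLF2, KLF3, KLF4, KLF5, KLF6, KLF9, KLF10, KLF11, KLF13 and KLF16, were followed in SW1990 cells, an established cell line from a pancreatic cancer. The genes were taken by name from the gene count table. The names were picked with the gomisin G against vehicle values of the same libraries in view, so these values are a description. Calls of a test over the whole table are counted for them beside the share of all genes, but no p is given for them and nothing is supported by them. The table holds 18 KLF genes among 58735 genes in all. The cells received gomisin G, a plant lignan, at 10 µM for 24 h (2 libraries) or vehicle for 24 h (2 libraries). The series is about growth inhibition and the Hippo-YAP pathway, and the comparison asks which transcripts differ between gomisin G and vehicle. Whether the replicates were separate cultures is not stated, so p-values measure a spread between samples that may be technical.

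Library totals were 14580848 to 15245770 counts, and 15721 genes passed the expression filter, all 10 KLF genes among them. With edgeR's quasi-likelihood test and a Benjamini-Hochberg adjusted p below 0.05, 145 genes were called higher with gomisin G and 142 lower. The unadjusted p of this test was below 0.05 for 3232 of the 15721 tested genes. The gomisin G replicates differed more from each other (chi-square of 37.2 per gene) than the vehicle replicates did (6.98 per gene). Epithelial marker transcripts dominated: the 7 ductal markers summed to 8995 and 7284 CPM (counts scaled to library size) with gomisin G, against 11170 and 9409 CPM in vehicle, although KRT7 was near 1 CPM in 3 libraries and at 2.07 CPM in gomisin G replicate 1. KRT8, KRT18 and CDH1 were lower in both gomisin G libraries, while MUC1, KRT19 and EPCAM were higher in both (log2 differences 0.83, 0.68 and 0.29). By edgeR and limma voom none of the 7 was called, 2 had an unadjusted p below 0.05, both higher, and DESeq2 called 1 higher. Markers of other cell types were near 0, except those of fibroblasts. The 4 endothelial markers summed to 0.1995 and 0.853 CPM with gomisin G and to 0.960 and 0.268 CPM in vehicle, with KDR at 0 in all 4 libraries. The 4 leukocyte markers summed to 0.599 and 0.262 CPM with gomisin G and to 0.412 and 0.336 CPM in vehicle, with PTPRC and CD3E at 0 in all 4 libraries. The 6 acinar and islet markers summed to 0.665 and 0.525 CPM with gomisin G and to 0.343 and 0.403 CPM in vehicle. Fibroblast markers had higher sums in both gomisin G libraries. The 5 fibroblast markers summed to 8.25 and 12.2 CPM with gomisin G, against 4.60 and 4.90 CPM in vehicle, with COL1A2 and LUM at 0 in all 4 libraries. Of the 5, 2 were tested, both with an unadjusted p below 0.05. Neither edgeR nor limma voom called them, while DESeq2 called 1. The part of this difference in the KLF values was not tested.

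Promoter sequence was read for the 3 KLF genes with the largest positive differences, KLF2, KLF6 and KLF9, because their windows differ in base composition and in known promoter elements. The sequences are from RefSeq (GRCh38.p14) and run 5′ to 3′ on the gene's strand over the 250 bases before the annotated start, without bases that lie in GENCODE 29 exons. Capitals mark the GC box GGGCGG, the motifs named CACCC box and CCAAT box after their letters, and the MEF2 consensus, each on either strand. The KLF2 stretch is chr19:16324576-16324816 (plus strand), that of KLF6 is chr10:3785282-3785459 (minus strand), and that of KLF9 is chr9:70414658-70414907 (minus strand).
KLF2: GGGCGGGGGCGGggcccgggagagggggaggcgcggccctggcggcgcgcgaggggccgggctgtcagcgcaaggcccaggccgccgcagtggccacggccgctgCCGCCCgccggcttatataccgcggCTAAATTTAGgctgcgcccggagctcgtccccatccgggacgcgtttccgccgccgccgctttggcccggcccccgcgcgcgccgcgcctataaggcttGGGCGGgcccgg
KLF6: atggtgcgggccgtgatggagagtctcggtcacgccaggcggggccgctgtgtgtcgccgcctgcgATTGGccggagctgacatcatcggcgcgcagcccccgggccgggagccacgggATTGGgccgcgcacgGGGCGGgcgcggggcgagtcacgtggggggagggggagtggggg
KLF9: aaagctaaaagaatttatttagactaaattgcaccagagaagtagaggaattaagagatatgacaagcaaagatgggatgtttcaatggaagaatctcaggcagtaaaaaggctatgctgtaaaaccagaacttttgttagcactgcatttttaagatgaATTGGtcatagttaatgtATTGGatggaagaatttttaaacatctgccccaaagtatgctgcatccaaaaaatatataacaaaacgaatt

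The KLF2 window had a GC content of 80% and held 4 GC boxes and the palindrome CTAAATTTAG, a match to the MEF2 consensus, at positions -120 to -111 from the start. The KLF6 window (72.4% GC) held 2 GC boxes, 1 of them in the exon bases left out of the printed stretch, and 2 CCAAT boxes. The KLF9 window (32.4% GC) held 2 CCAAT boxes and no GC box. The median over the 35116 windows of all genes was 58.0% GC.

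Windows were present for 8 of the 10 genes, 10 windows in all because KLF5 and KLF11 had 2 each. A GC box was found in 8 of the 10 windows, against 42.6% of all windows. A CACCC box was found in 4 of 10 (54.7% of all windows) and a CCAAT box in 4 of 10 (32%). The MEF2 consensus was found in 1, that of KLF2, against 0.515% of all windows. The cAMP response element TGACGTCA was in 1, a KLF11 window (1.65%), and the TATA element TATAAA in 1, a KLF5 window (10.7%). The TEAD element CATTCC (11.9%), the AP-1 element TGANTCA (6.57%) and the CArG consensus (1.16%) matched none of the 10. Matches were sought on both strands. The CACCC box overlapped a GC box in KLF13 and the cAMP response element in KLF11. These are letter matches only.

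KLF2 and KLF6 transcripts rose with gomisin G, and they were the only 2 of the 10 genes called higher (20%), where 0.922% of all tested genes were called higher and 1.83% in either direction. None was called lower by edgeR, DESeq2 or limma voom, where edgeR called 0.903% of all tested genes lower, and none of the negative changes had an unadjusted p below 0.05. Since the genes were picked on this contrast, nothing is read from these shares. In bulk RNA, a change in the number of cells that carry a transcript and a change in transcript per cell cannot be told apart.

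Among the activator-type factors, KLF2 (ENSG00000127528, chromosome 19 at 16324817 to 16327874, GRCh38) had 321.8 and 233.2 CPM in gomisin G replicates 1 and 2, against 29.1 and 27.7 CPM in vehicle replicates 1 and 2. Both gomisin G libraries lay far above both vehicle libraries. The log2 change, gomisin G minus vehicle, was 3.29 (SE 0.21), a 9.76-fold increase, and it was the seventh largest increase among all tested genes. The raw counts behind it were 4659 and 3695 with gomisin G and 422 and 412 in vehicle. KLF2 is a shear-stress factor of endothelium that also holds T cells in quiescence.

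KLF6 (ENSG00000067082, chromosome 10 at 3775996 to 3785281), an injury-induced factor with a part in growth control, had 153.1 and 183.6 CPM with gomisin G, against 62.6 and 62.8 CPM in vehicle. Its log2 change was 1.42 (SE 0.17), a 2.68-fold increase, and the vehicle libraries were almost equal. KLF4 (ENSG00000136826, chromosome 9 at 107484852 to 107490482), a factor of epithelial differentiation and of reprogramming to pluripotency, had 77.4 and 83.6 CPM with gomisin G, against 59.5 and 53.7 CPM in vehicle. The groups did not overlap, and the log2 difference was 0.51 (SE 0.16), which was not called.

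KLF5 (ENSG00000102554, chromosome 13 at 73054976 to 73077542), a factor of proliferating gut epithelium, had 189.7 and 243.6 CPM with gomisin G, against 248.1 and 261.8 CPM in vehicle. Gomisin G replicate 2 lay only just below the lower vehicle library. The log2 difference of -0.23 (SE 0.18) was not called with both gomisin G libraries. Replicate 1 lay at -0.43 and replicate 2 at -0.07, each against the vehicle mean. Without gomisin G replicate 2 the log2 difference was -0.43 for KLF5 and -0.34 for KLF10.

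**Figure D1:**
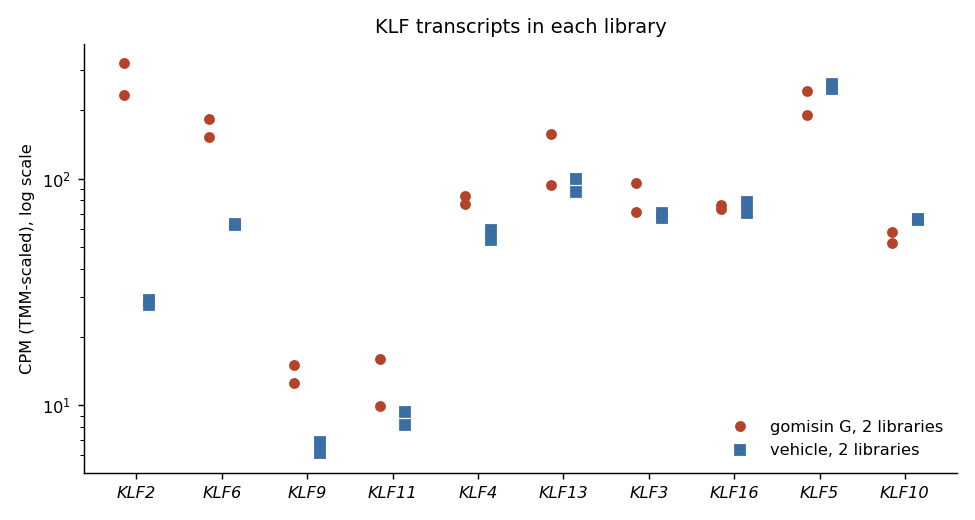
CPM on a log scale (TMM-scaled) of the 10 KLF genes, with 1 point per library, gomisin G as circles and vehicle as squares. KLF2 stands apart, at 321.8 and 233.2 CPM with gomisin G against 29.1 and 27.7 CPM in vehicle, and the KLF13 and KLF16 points of the groups overlap.

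Among the SIN3-binding members, KLF9 and KLF11 had the largest differences. KLF9 (ENSG00000119138, chromosome 9 at 70384597 to 70414624), a target of glucocorticoid and thyroid hormone receptors, had 12.6 and 15.1 CPM with gomisin G, against 6.90 and 6.12 CPM in vehicle. The groups did not overlap and the log2 difference was 1.09 (SE 0.22). It was not called by the test as run, but was called under 8 of the 14 alternative settings.

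KLF10 (ENSG00000155090, chromosome 8 at 102648779 to 102655902) and KLF11 (ENSG00000172059, chromosome 2 at 10042849 to 10054836) are TGF-beta-inducible early genes. KLF11 had 9.95 and 15.97 CPM with gomisin G, against 9.31 and 8.21 CPM in vehicle. Its log2 difference of 0.57 (SE 0.27) was carried by gomisin G replicate 2, which lay 0.87 above the vehicle mean, while replicate 1 lay 0.19 above it. KLF10 had 51.9 and 58.3 CPM with gomisin G, against 66.1 and 65.7 CPM in vehicle. This was the most negative log2 difference of the 10 genes, -0.26 (SE 0.16), and the TGF-beta-inducible pair thus had differences of opposite sign, neither of them called with all 4 libraries.

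KLF13 (ENSG00000169926, chromosome 15 at 31326855 to 31435665), a factor of T cells and heart, had 93.3 and 157.9 CPM with gomisin G, against 86.8 and 99.1 CPM in vehicle. The groups overlapped. Gomisin G replicate 1 lay 0.01 above the vehicle mean on the log2 scale and replicate 2 lay 0.77 above it, so the log2 difference of 0.44 (SE 0.25) rested on replicate 2. KLF16 (ENSG00000129911, chromosome 19 at 1852399 to 1863568), which can repress through SIN3, had 73.2 and 76.3 CPM with gomisin G, against 78.6 and 70.7 CPM in vehicle, with a log2 difference of 0.00 (SE 0.16). Its sign turned under 5 of the 14 alternative settings, and it was -0.41 when trends with length and GC content were removed.

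The CtBP-binding repressor KLF3 (ENSG00000109787, chromosome 4 at 38664196 to 38701042) had 70.9 and 95.1 CPM with gomisin G, against 66.6 and 70.2 CPM in vehicle. The log2 difference was 0.28 (SE 0.19), and gomisin G replicate 1 lay only 0.05 above the vehicle mean. Without gomisin G replicate 1 the log2 difference of KLF3 was 0.47.

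Over the 10 genes, 8 had a positive and 2 a negative log2 difference, with a median of 0.47, against 50.7% positive and a median of 0.01 over all tested genes. For gomisin G replicate 1 alone this median was 0.12, and for replicate 2 alone 0.67. The libraries of the groups did not overlap for 6 genes that were higher with gomisin G and 2 that were lower, where 27% and 27.3% of all tested genes did not overlap in these directions.

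The labels do not state whether counting was stranded, so reads of KLF3, KLF11 and KLF16 cannot be told apart from those of annotated antisense neighbours. Counts given to these neighbours were low: 15 and 12 with gomisin G and 8 and 3 in vehicle for KLF3-AS1, and 1 and 33 with gomisin G and 22 and 13 in vehicle for AC012615.4 at KLF16. The neighbour of KLF11 had 0. The 10 KLF pseudogenes of the table held 16 counts in all, and those named after KLF2 held 2.

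**Figure D2:**
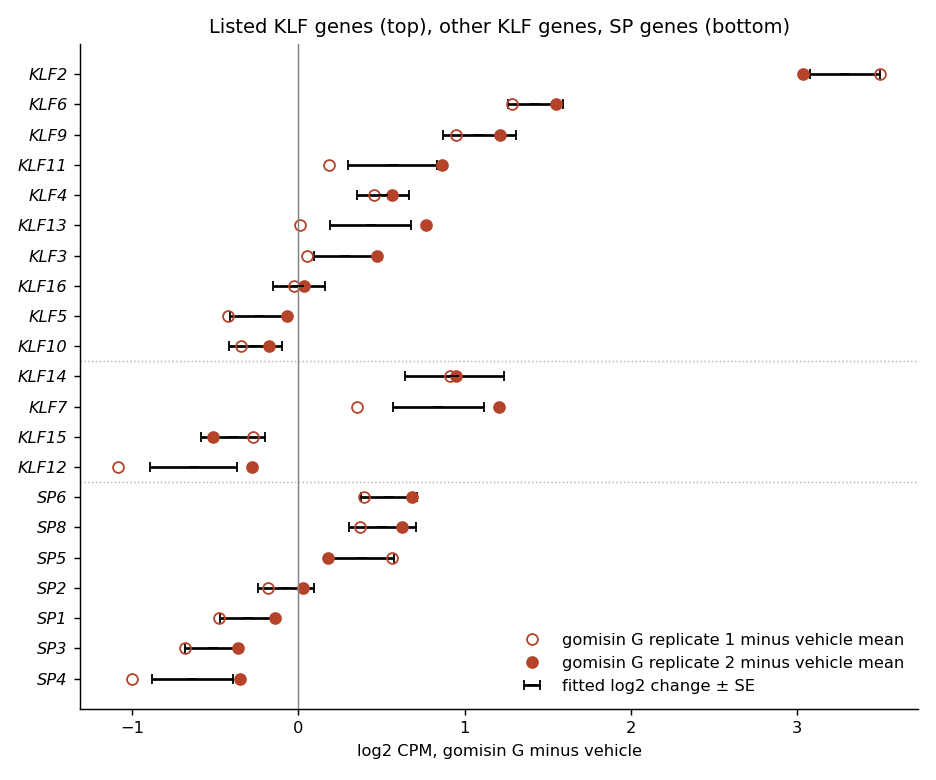
Log2 CPM differences, gomisin G minus vehicle, of the 10 listed KLF genes (top), the other tested KLF genes (middle) and the SP genes (bottom), with SE bars from the fit and a circle for each gomisin G library against the vehicle mean. KLF2 at 3.29 and KLF6 at 1.42 lie to the right of the other genes, and the circles of KLF7, KLF12 and KLF13 lie far apart.

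The 8 KLF genes outside the list gave no call by edgeR, DESeq2 or limma voom. Of these, 4 were tested and 3 had an unadjusted p below 0.05, as had 3232 of the 15721 tested genes. KLF14, a single-exon relative of KLF16, had 3.87 and 3.98 CPM with gomisin G, against 2.0 and 2.09 CPM in vehicle (log2 difference 0.94, SE 0.30, edgeR adjusted p = 0.139). KLF7, a factor of neurons and fat, had 23.4 and 42.4 CPM with gomisin G, against 17.6 and 19.1 CPM in vehicle (log2 difference 0.84, SE 0.27, edgeR adjusted p = 0.147). The groups did not overlap for either gene, and KLF7 was called when the length trend was removed (edgeR adjusted p = 0.0392).

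KLF12, a CtBP-binding repressor, had 18.8 and 32.8 CPM with gomisin G, against 37.0 and 42.9 CPM in vehicle (log2 difference -0.63, SE 0.26, edgeR adjusted p = 0.226). KLF15, a factor of glucose and amino acid metabolism, had 15.5 and 13.1 CPM with gomisin G, against 20.1 and 17.6 CPM in vehicle (log2 difference -0.39, SE 0.19, edgeR adjusted p = 0.293). Without gomisin G replicate 2 the log2 difference of KLF12 was -1.09. Without replicate 1 that of KLF15 was -0.52 and that of KLF7 was 1.20. KLF12 was at -0.31 and KLF15 at -0.70 when trends with length and GC content were removed. The erythroid factor KLF1 had 3 and 6 counts with gomisin G and 3 and 13 in vehicle, and KLF8 had 1 and 6 with gomisin G and 3 and 3 in vehicle. KLF18 had 0 and 2 counts with gomisin G and 0 in both vehicle libraries, and KLF17 had 0 counts in all 4 libraries, which allows up to 0.206 CPM in a library (3 counts; counting error only).

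The SP genes, whose proteins bind the same GC boxes, gave no call by edgeR, DESeq2 or limma voom either. Of 9 SP genes 7 were tested and 4 had an unadjusted p below 0.05, as had 3232 of the 15721 tested genes. The median log2 difference was -0.07. SP3 had 76.9 and 96.1 CPM with gomisin G, against 124.8 and 122.4 CPM in vehicle (log2 difference -0.51, edgeR adjusted p = 0.149). SP1, the broadly expressed GC-box activator, had 85.7 and 108.1 CPM with gomisin G, against 115.8 and 123.0 CPM in vehicle (log2 difference -0.30, edgeR adjusted p = 0.352). SP6, an epithelial and tooth factor, had 71.9 and 87.6 CPM with gomisin G, against 54.5 and 54.8 CPM in vehicle (log2 difference 0.55, edgeR adjusted p = 0.130).

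The other tested SP genes had log2 differences of -0.64 (SP4), -0.07 (SP2), 0.38 (SP5) and 0.51 (SP8), with edgeR adjusted p of 0.199, 0.834, 0.294 and 0.214 in that order, and SP5 turned to -0.10 when trends with length and GC content were removed. Without gomisin G replicate 1 the log2 differences were -0.37 (SP3), 0.68 (SP6) and 0.62 (SP8). Without replicate 2 they were -0.68 (SP3), 0.40 (SP6), -0.48 (SP1), -1.002 (SP4) and 0.56 (SP5). The SP3 difference was -0.18, that of SP1 -0.11 and that of SP6 0.35 when trends with length and GC content were removed. SP7 and SP9 had at most 1 count in any library. Among the 604 other genes that the table's own annotation puts in the zf-C2H2 class, 417 were tested, with 1 called higher and 1 called lower (0.48% in all) and a median log2 difference of -0.06.

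CPM values favour long genes, so levels between the KLF genes were compared as TPM (per length). KLF2 was at 413.8 ± 33.9 TPM with gomisin G (mean ± SD, n = 2) and 46.7 ± 1.69 TPM in vehicle. It ranked 1 of 10 with gomisin G and 5 of 10 in vehicle. KLF5 was at 172.4 ± 54.6 TPM with gomisin G, second in order, and at 217.2 ± 7.83 TPM in vehicle, first in order.

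With gomisin G the order after KLF2 and KLF5 was KLF6 (84.7 ± 22.9 TPM), KLF16 (77.6 ± 13.5), KLF4 (67.6 ± 13.5), KLF10 (42.4 ± 9.60), KLF13 (41.9 ± 20.8), KLF3 (40.9 ± 14.2), KLF11 (8.84 ± 4.09) and KLF9 (8.25 ± 2.24). Neighbours in this order overlapped between libraries for KLF6 and KLF16, KLF16 and KLF4, KLF10 and KLF13, KLF13 and KLF3, and KLF11 and KLF9. Within replicate 1 KLF6, KLF16 and KLF4 were at 68.5, 68.0 and 58.0 TPM, and within replicate 2 at 100.9, 87.1 and 77.1 TPM. Their order was thus the same in both libraries, while the other overlapping pairs changed order. In vehicle the order after KLF5 was KLF16 (83.8 ± 6.37 TPM), KLF10 (54.6 ± 0.375), KLF4 (51.3 ± 3.78), KLF2, KLF3 (36.0 ± 1.26), KLF6 (33.9 ± 0.0225), KLF13 (32.8 ± 3.02), KLF11 (6.33 ± 0.575) and KLF9 (4.17 ± 0.358). Only KLF6 and KLF13 overlapped there.

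The 10 genes summed to 872.5 and 1044 TPM with gomisin G and to 567.5 and 566.0 TPM in vehicle. KLF2 alone made up 50.2% and 37.3% of the sum with gomisin G, against 8.44% and 8.04% in vehicle. KLF5 made up 15.3% and 20.2% with gomisin G, against 37.3% and 39.3% in vehicle. Without KLF2 the sums were 434.7 and 654.4 TPM with gomisin G and 519.6 and 520.5 TPM in vehicle, and the groups overlapped. TPM was not corrected for the difference along gene length between the gomisin G libraries, which is described below. In gomisin G replicates 1 and 2, KLF16 was at 73.2 and 76.3 CPM but at 68.0 and 87.1 TPM. The part of this length difference in the sums and shares was not tested.

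**Figure D3:**
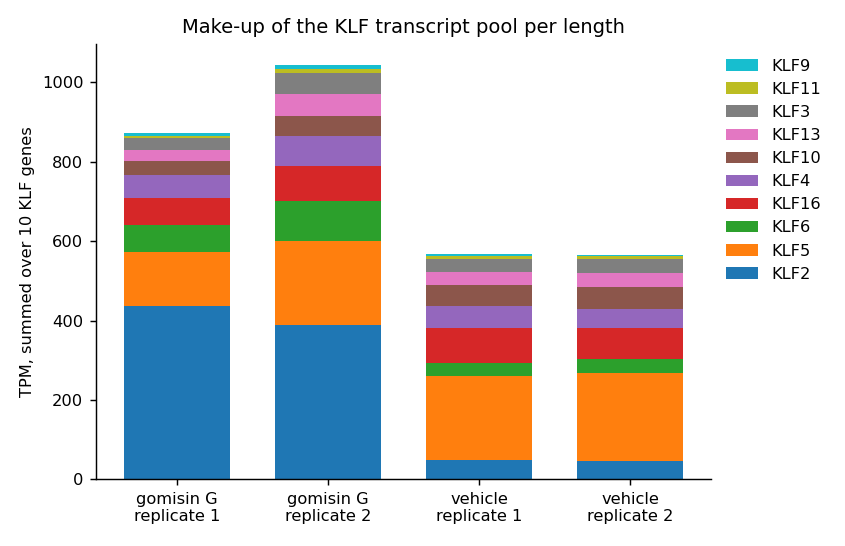
TPM of the 10 KLF genes stacked per library, gomisin G libraries on the left and vehicle libraries on the right. The KLF2 block makes up 50.2% and 37.3% of the gomisin G bars, against 8.44% and 8.04% of the vehicle bars, where KLF5 is the tallest block. TPM is not corrected for the difference along gene length between the gomisin G libraries.

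The gomisin G libraries differed from each other along gene length, and the KLF genes followed this. The log2 ratio of gomisin G replicate 2 to replicate 1 was -0.46 for KLF2, which has the shortest exon length of the 10 genes (2018 bases), and 0.76 for KLF13, which has the longest (9409 bases). The other 8 genes lay between, with KLF16 at 0.06, KLF4 at 0.11, KLF10 at 0.17, KLF6 and KLF9 at 0.26, KLF5 at 0.36, KLF3 at 0.42 and KLF11 at 0.68. Spearman's correlation between exon length and this ratio was 0.83 over the 10 genes, 0.93 over the 14 tested KLF genes and 0.38 over all tested genes. For vehicle replicate 2 to replicate 1, the correlation was 0.42, 0.64 and 0.21 over the same sets. These are correlations across genes that share 4 libraries, and genes are not replicates.

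Against the treatment change itself, Spearman's correlation with exon length was 0.01 over the 10 genes and -0.29 over all tested genes. Tested genes under 2500 bases had a median log2 change of 0.21 (0.35 in gomisin G replicate 1, 0.10 in replicate 2). Those of 10000 bases or more had a median of -0.24 (-0.46 in replicate 1, -0.05 in replicate 2). The KLF2 value, with a median of 0.21 for its length class, was 2.81 when trends with length and GC content were removed, the lowest over all 14 alternatives. KLF6, in the class of 5000 to 10000 bases whose median was -0.09, kept a log2 change of 1.29 to 1.55 over these alternatives.

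**Figure D4:**
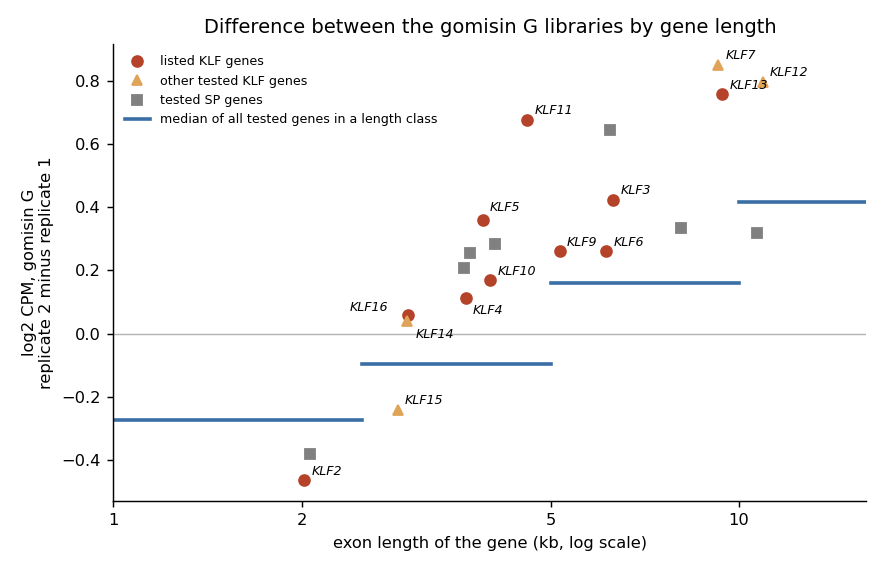
Log2 CPM ratio of gomisin G replicate 2 to replicate 1 against exon length (kb, log scale) for the KLF genes, with horizontal bars for the median of all tested genes in each length class. KLF2 is lowest among the 10 listed genes at -0.46 and KLF13 highest at 0.76, while the class medians run between -0.28 and 0.42.

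The log2 changes of KLF2 (2.81 to 3.50) and KLF6 were called under all 14 alternatives. KLF9 ranged from 0.95 to 1.21, KLF4 from 0.37 to 0.58, KLF3 from 0.05 to 0.47, KLF11 from 0.18 to 0.86 and KLF13 from 0.01 to 0.76, all positive. KLF5 ranged from -0.43 to -0.07 and KLF10 from -0.34 to -0.18, both negative throughout. With a gomisin G library left out, the remaining one has no replicate of its own and is assumed to vary like the vehicle libraries.

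**Figure D5:**
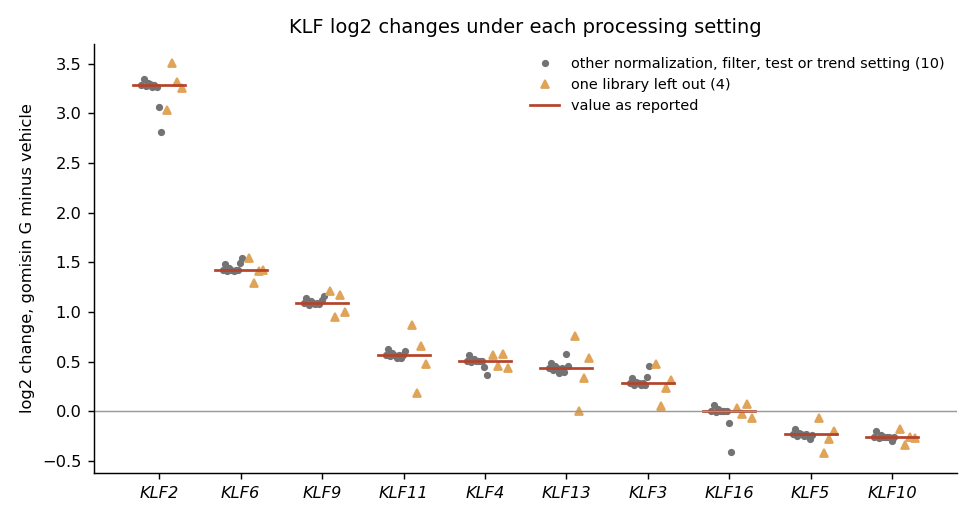
Log2 change, gomisin G minus vehicle, of the 10 KLF genes as reported (bars), under 10 other normalization, filter, test or trend settings (dots) and with 1 library left out (triangles). KLF2 stays at or above 2.81 and KLF6 at or above 1.29, while KLF13 runs from 0.01 to 0.76 and KLF16 crosses 0.

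The genes whose pattern lay nearest to that of KLF2 over the 4 libraries were SLC6A12, JUN, RHOB, KRT20 and CHI3L1, out of 11587 protein-coding candidates. Likeness was the Euclidean distance between log2 CPM values centred on the vehicle mean, so these values are a description. SLC6A12, a betaine and GABA transporter, was nearest (distance 0.504), with 3.45 and 3.35 CPM with gomisin G, against 0.276 and 0.404 CPM in vehicle. JUN, an AP-1 subunit, followed (distance 0.540), with 334.3 and 345.3 CPM with gomisin G, against 45.2 and 40.6 CPM in vehicle. RHOB, a small GTPase gene, was at distance 0.906, with 885.9 and 751.9 CPM with gomisin G, against 133.0 and 129.2 CPM in vehicle. All 3 were higher in both gomisin G libraries than in either vehicle library, which follows from how they were picked. The vehicle values of SLC6A12 lay near the weight of 3 counts, which is 0.201 to 0.206 CPM in the vehicle libraries. KRT20, a keratin of gut epithelium, and CHI3L1, a secreted chitinase-like protein, lay at distances of 1.12 and 1.21.

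The lists around the 10 genes held the other KLF and SP genes, genes known to act on KLF genes and proteins, and genes acted on by them. Like the 10 genes, the lists were drawn up with earlier results of these data known. The shares and p values of list genes are therefore a description, and nothing is supported by them. Of the 97 listed genes 80 were tested and 3 were called (3.75%, against 1.83% of all tested genes), 2 higher and 1 lower. An unadjusted p below 0.05, counted for each list below, was found for 3232 of the 15721 tested genes. The number of listed genes called rose with either gomisin G library left out, as did the number over all tested genes. Transcripts of the MEK5-ERK5-MEF2 route, which induces KLF2 in endothelium, gave none among 8 genes tested by edgeR, DESeq2 or limma voom (median log2 difference 0.10, 2 with an unadjusted p below 0.05). MEF2C, a MEF2 factor, had 5.66 and 7.76 CPM with gomisin G, against 2.97 and 4.78 CPM in vehicle (log2 difference 0.79, SE 0.31, edgeR adjusted p = 0.210). MAP3K2, a kinase at the head of the route, had 39.2 and 52.8 CPM with gomisin G, against 62.9 and 61.4 CPM in vehicle (log2 difference -0.43, SE 0.19, edgeR adjusted p = 0.243). The MAP3K2 difference was -0.06 when trends with length and GC content were removed, -0.24 without gomisin G replicate 1 and -0.66 without replicate 2. That of MEF2C was 0.997 without replicate 1 and 0.55 without replicate 2.

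The 12 corepressor and coactivator genes gave no call by any of these tools and no unadjusted p below 0.05, with a median log2 difference of -0.14. The lowest p values belonged to CTBP2, the partner of KLF3 (log2 difference -0.32, edgeR adjusted p = 0.290), and NCOR1 (-0.36, edgeR adjusted p = 0.428). With trends with length and GC content removed, CTBP2 was at -0.02 and NCOR1 at -0.08. Without gomisin G replicate 1 NCOR1 was at -0.04, and without replicate 2 CTBP2 was at -0.40 and NCOR1 at -0.79. The 10 ubiquitin-system genes that act on KLF proteins gave no call either, with 1 unadjusted p below 0.05 and a median of -0.00. Among these, VHL had a log2 difference of 0.43 (edgeR adjusted p = 0.206) and STUB1 one of 0.42 (edgeR adjusted p = 0.245), which turned to -0.02 when trends with length and GC content were removed. Without gomisin G replicate 2 VHL was at 0.57 and STUB1 at 0.56.

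Of 12 endothelial target genes of KLF2 and KLF4, 4 were tested, with no call by any of these tools, no unadjusted p below 0.05 and a median log2 difference of -0.17. THBD, S1PR1, TEK and VCAM1 had 0 counts in all 4 libraries. NOS3, the endothelial nitric oxide synthase, had 1.59 and 2.08 CPM with gomisin G, against 0.828 and 1.21 CPM in vehicle (log2 difference 0.85, edgeR adjusted p = 0.301). CYP1B1 had a log2 difference of -0.35 (edgeR adjusted p = 0.313), which was -0.53 without gomisin G replicate 2.

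Of 19 epithelial and growth-control targets of KLF4, KLF5 and KLF6, 17 were tested, with 1 called lower and none called higher (5.88%, against 1.83% of all tested genes; 5 with an unadjusted p below 0.05, 4 of them higher; median log2 difference 0.09). DESeq2 called 2 of them higher and limma voom none, and each called 1 lower. The gene called lower by each tool was CCND1, which encodes cyclin D1 of the G1 phase. It fell to 243.1 and 280.5 CPM with gomisin G, against 612.0 and 610.5 CPM in vehicle (log2 change -1.22, SE 0.17, edgeR adjusted p = 0.0230). The call was lost without vehicle replicate 1 (edgeR adjusted p = 0.0950) and without vehicle replicate 2 (edgeR adjusted p = 0.0983), at about the same size of -1.23.

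Of 11 TGF-beta early and feedback genes, all tested, 1 was called higher and none lower (9.09%, against 1.83% of all tested genes; 4 with an unadjusted p below 0.05, 1 of them lower; median log2 difference 0.00). DESeq2 called 2 of them higher, limma voom 1, and neither called any lower. Of the 11 log2 differences 6 were positive and 5 negative, among the latter SMAD3 (-0.64, edgeR adjusted p = 0.137) and SMAD7 (-0.25). The gene called by edgeR was ID3, which encodes an inhibitor of basic helix-loop-helix factors. It had 242.9 and 168.9 CPM with gomisin G, against 63.4 and 63.5 CPM in vehicle (log2 change 1.70, SE 0.20, edgeR adjusted p = 0.0139). Also positive, but not called by edgeR, were ID1 (1.08, edgeR adjusted p = 0.0613) and SMAD6 (0.91, edgeR adjusted p = 0.129). ID2 was at -0.10. TGF-beta signalling itself was not tested.

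Of 8 glucocorticoid-induced genes, 7 were tested, with 1 called higher and none lower (14.3%, against 1.83% of all tested genes; 5 with an unadjusted p below 0.05, 1 of them lower; median log2 difference 0.70). DESeq2 called 2 of these higher, limma voom 1, and neither called any lower. The gene called by edgeR was TSC22D3, the glucocorticoid-induced leucine zipper gene, with 52.5 and 42.5 CPM with gomisin G, against 16.9 and 13.3 CPM in vehicle (log2 change 1.65, SE 0.20, edgeR adjusted p = 0.0140). Of the 7 tested genes 5 had a positive log2 difference and 2 a negative one. The 2 were FKBP5 (-0.70, SE 0.20, edgeR adjusted p = 0.117) and PER1 (-0.05), while ZBTB16 had 0 counts in all 4 libraries. ID3 and TSC22D3, like KLF2, were higher in gomisin G replicate 1 than in replicate 2, and both gomisin G libraries lay above both vehicle libraries. With trends with length and GC content removed, ID3 was at 1.34 and TSC22D3 at 1.62. The part of the length trend in this likeness to KLF2 was not tested.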

How the data were processed

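RNA was measured by sequencing in 4 libraries of SW1990 cells, and the authors deposited unnormalised counts per gene. Per the submitters' processing notes, the tools were fastp, HISAT2 and featureCounts and the build was hg38; no versions or settings are listed. Per the labels' protocols, ribosomal RNA was removed before library construction. For strand use and reads matching several places, settings are not given in the sources used here. Identifiers and coordinates of all 58735 genes matched GENCODE 29.

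Libraries were grouped by their titles. Genes were filtered with filterByExpr by group, scaled with TMM and tested on the whole table with edgeR 4.0.16 (R 4.3.3), robust quasi-likelihood F test, newer estimation, 2 residual degrees of freedom and Benjamini-Hochberg adjustment over the 15721 tested genes at 0.05. The script was tested on simulated data. Single-library differences use log2 CPM with a prior count of 0.5, and ratios of replicates use log2 (CPM + 0.1). TPM was computed from the counts and the exon length in the files. Marker sums use plain library totals. Total counts give 3 counts a weight of 0.197 to 0.206 CPM per library; floors cover counting error only.

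Alternatives were RLE and upper-quartile factors, no filter, at least 50 counts in 2 samples, DESeq2 1.42.0, limma voom (limma 3.58.1), the legacy estimation, a replicate block, removal of smooth trends with length or with length and GC content, and leaving out each library. For levels, CPM without length was the alternative.

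The named genes are the 10 listed KLF genes, all other KLF and SP genes, the called genes of each other list (up to 4, or the 2 with the lowest p where none was called) and the 5 protein-coding genes nearest to KLF2 whose mean log2 CPM was 1 or more. The KLF genes, gene lists and tests were chosen with earlier results of these data known. No p is therefore given for the 10 listed KLF genes, and the p values of other list genes are a description. Other genes printed for a check (markers, genes at 0, antisense neighbours and list genes that were lower beside a called gene) are outside this rule. Promoter windows were read from a RefSeq table (GRCh38.p14).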

Additional observations from a re-analysis of the deposited data

How the results depend on the processing

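The direction of 9 of the 10 KLF genes was the same under all 14 alternatives; the exception was KLF16, whose values lay on either side of 0. The number called higher was 2, and 3 (KLF9 added) with upper-quartile factors, at least 50 counts in 2 samples, DESeq2 and both trend removals; it ran from 2 to 7 with a library left out, with 7 when gomisin G replicate 1 and 4 when replicate 2 was the one left out. The number called lower was 0, and 0 to 2 with a library left out, the 2 being KLF5 and KLF10 without gomisin G replicate 2. Of the 3 calls among the listed other genes, all 3 were kept except without a vehicle library, which lost CCND1; the count was 7 with DESeq2, 5 with the length trend removed and 2 to 40 with a library left out (40 without gomisin G replicate 2, 21 without replicate 1). Over all tested genes the 287 calls became 883 with DESeq2, 900 with the length trend removed, 516 with length and GC trends removed and 135 to 6322 with a library left out (2835 without gomisin G replicate 1, 6322 without replicate 2, 160 and 135 without vehicle replicates 1 and 2). A gomisin G library left out leaves the vehicle pair to set the spread; a vehicle library left out leaves the gomisin G pair. The cause of the other shifts was not tested. KLF2 ranked 5 of 10 in vehicle by TPM and 8 by CPM without length.

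Replicate numbers 1 and 2 occur in both groups, but nothing says that equal numbers share a culture or day, and deviations of same-numbered samples correlated at 0.19. With a replicate block, 4 KLF genes were called higher (KLF4 and KLF9 added) and 0 lower, 24 listed other genes were called, and 2886 of all tested genes. With 2 libraries a group, differences of the size of that in KLF3 or KLF10 could not be told from the spread.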
